A study of Mus musculus with 12 samples.

Results

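The genes described here load and display peptides on major histocompatibility complex (MHC) class II molecules. They are 10 genes chosen by name from the 55401 gene IDs of the deposited count table, and all 10 passed the filter on low counts. They are the chain genes H2-Aa, H2-Ab1 and H2-Eb1, the invariant chain gene Cd74, the peptide exchange genes H2-DMa, H2-DMb1 and H2-DMb2, the H2-O genes H2-Oa and H2-Ob, and Ciita. RNA was sequenced in bulk from bone marrow derived macrophages, which are bone marrow cells grown into macrophages in dishes with macrophage colony-stimulating factor (M-CSF, 20 ng/mL) and taken on day 7. The 6 old libraries came from mice aged 12 months and the 6 young libraries from mice aged 8 weeks. Both groups share the C57BL6 background, the medium and the growth factor, and no interferon gamma or other activating agent is named in the labels. The labels number the libraries as biological replicates and do not say whether each came from its own mouse, and where they did not, the spread behind a p-value is technical. Bone marrow cultured with M-CSF gives a model of newly formed macrophages, not of macrophages living in an aged tissue.

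MHC class II molecules are pairs of an alpha and a beta chain that carry peptides of engulfed proteins to the cell surface, where CD4 T cells read them. The invariant chain, encoded by Cd74, folds around new class II molecules and steers them to endosomes, where proteases trim it to a fragment called CLIP. H2-DM exchanges CLIP for peptide, and H2-O restrains H2-DM. Ciita encodes the class II transactivator, which does not bind DNA itself and is recruited to factors sitting on the promoters of class II genes. In macrophages, Ciita is known to be induced by interferon gamma, and resting macrophages carry low class II levels. Mice of the C57BL6 background lack a working alpha chain gene for the second class II molecule, I-E, so the beta chain of H2-Eb1 has no partner in them.

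Stretches of the members' promoters are shown because Ciita acts through short shared elements there, called the X and Y boxes. RefSeq promoter windows (300 bases, of which 250 lie before the annotated start and 50 after it) were found for 7 of the 10 members, and not for H2-Ab1, Cd74 and Ciita. The Y box was searched as TGATTGG on either strand, and the start of the X box as AAC placed 23 to 27 bases before it. Both letters and spacing were chosen after these windows had been read. Capitals mark the AAC and the TGATTGG, and each sequence is given 5′ to 3′ on the gene's own strand:
H2-Aa: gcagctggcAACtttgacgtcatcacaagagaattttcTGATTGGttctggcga
H2-Eb1: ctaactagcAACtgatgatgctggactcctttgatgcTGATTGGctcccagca
H2-DMb1: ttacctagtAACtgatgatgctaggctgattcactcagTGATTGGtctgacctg
H2-DMb2: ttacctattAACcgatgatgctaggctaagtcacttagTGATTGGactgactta
H2-Oa: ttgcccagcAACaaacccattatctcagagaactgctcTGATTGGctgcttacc
H2-Ob: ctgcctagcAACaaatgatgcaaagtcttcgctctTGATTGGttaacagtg
In build GRCm38.p6 these stretches lie at chr17:34287858-34287911 on the minus strand for H2-Aa and, on the plus strand, at chr17:34305769-34305821 for H2-Eb1, chr17:34153090-34153143 for H2-DMb1, chr17:34145119-34145172 for H2-DMb2, chr17:34092296-34092349 for H2-Oa and chr17:34238811-34238861 for H2-Ob. TGATTGG was present in the windows of these 6 members and in 7.8% of all 32544 RefSeq windows of this length. AAC and TGATTGG at this spacing were present in the same 6 and in 0.541% of all windows. The TGATTGG began 45 bases before the annotated start in H2-Oa, 50 in H2-Aa, 59 in H2-Ob, 61 in H2-Eb1, 63 in H2-DMb1 and 92 in H2-DMb2. The 2 windows of H2-DMa, at chr17:34122582-34122881 and chr17:34125268-34125567, held neither TGATTGG nor the spaced pair. The first overlaps the annotation of the neighbouring gene Brd2, and the annotation of H2-DMa runs on to 34139101. Any start further along H2-DMa was not searched, so an X or Y box there would have been missed. A match describes letters and not bound protein.

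Library totals were 19345587 to 22356812 counts in old and 22150081 to 25169045 counts in young libraries. Of the 9 macrophage genes checked, all were measured, and their summed level, in counts scaled to the library total (CPM), was 32683 to 43845 CPM in old and 27270 to 45152 CPM in young libraries. The library of old replicate 6 stood apart. Its markers of T, NK and innate lymphoid cells summed to 33.2 CPM, against at most 0.271 CPM in each of the other 11 libraries. In it Cd8a had 12.6 CPM, Nkg7 8.60 CPM, Cd3g 5.08 CPM, Cd3d 4.56 CPM and Cd3e 2.28 CPM, while Gzma was at 0 and Ifng at 0.0518 CPM. It also had 22.5 CPM of Ly6c2, listed here with the monocyte and progenitor markers, against at most 1.502 CPM elsewhere. Which cells carried Ly6c2 was not tested. The libraries of young replicate 6, old replicate 2 and old replicate 3 had the highest levels of cell division genes, with sums over 14 genes of 2548, 1580 and 1057 CPM against 472 to 844 CPM in the other 9. Fold changes and correlations of the members are given below with and without these libraries.

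Set per length, as TPM (counts divided by the table's gene lengths and scaled to the library's sum), class II genes spanned a wide order of levels. Cd74 was the most abundant, at 2482 ± 1651 TPM in old and 2069 ± 1095 TPM in young libraries (SD, n = 6 each). The chain genes came next and lay close together. H2-Eb1 averaged 388 ± 308 TPM in old and 296 ± 148 TPM in young libraries, H2-Ab1 averaged 378 ± 263 TPM in old and 299 ± 158 TPM in young, and H2-Aa 329 ± 262 TPM in old and 245 ± 121 TPM in young. H2-Ab1 and H2-Eb1 each exceeded H2-Aa in 12 of 12 libraries, whereas H2-Eb1 exceeded H2-Ab1 in only 5 of 12, so their order was not fixed. H2-DMb1 stood at 100 ± 31.6 TPM in old and 91.4 ± 16.4 TPM in young libraries, above H2-DMa at 61.5 ± 21.0 TPM in old and 53.9 ± 16.5 TPM in young, in 12 of 12 libraries. Ciita followed with 11.1 ± 5.97 TPM in old and 8.71 ± 3.09 TPM in young libraries. The lowest 3 were H2-DMb2 (2.53 ± 1.00 TPM in old, 2.13 ± 0.547 TPM in young), H2-Oa (1.55 ± 0.509 TPM in old, 1.54 ± 0.473 TPM in young) and H2-Ob (0.430 ± 0.176 TPM in old, 0.659 ± 0.255 TPM in young). H2-DMb2 exceeded H2-Oa in 9 of 12 libraries, and H2-Oa exceeded H2-Ob in 12 of 12. H2-DMb1 and H2-DMb2 are near-identical neighbours, and reads that fit both were not counted, so the ratio between them is uncertain. The annotations of H2-Eb1, H2-DMa, H2-Oa, Cd74 and Ciita each overlap another gene, and the counting did not use strand.

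No class II gene passed the test between old and young macrophages. With edgeR's quasi-likelihood test and Benjamini-Hochberg adjustment over 12620 genes, 0 of 10 members passed an adjusted p of 0.05, beside 2 of all genes tested (0.0158%), and 0 of 10 had an unadjusted p under 0.05, against 690 of all genes. DESeq2 called 0 of 10 as well, and 11 of all genes. In bulk RNA, fewer cells of a type and less RNA per cell cannot be told apart.

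Among the chain genes, H2-Aa, the alpha chain of the class II molecule I-A, had 130 CPM in the lowest old library, a median of 330 CPM and 1030 CPM in the highest, against 119, 304 and 679 CPM in young libraries. The groups overlapped almost throughout, and the top library of each group, old replicate 6 and young replicate 5, lay well above the rest of its group. The log2 fold change of old over young was 0.34 (SE 0.50; edgeR adjusted p = 0.87). H2-Ab1, the beta chain of I-A, ran from 106 CPM through a median of 274 to 713 CPM in old and from 83.3 through 250 to 572 CPM in young libraries, with a log2 fold change of 0.25 (SE 0.50; edgeR adjusted p = 0.91). H2-Eb1, the beta chain of I-E, ran from 68.5 through 207 to 612 CPM in old and from 61.9 through 197 to 413 CPM in young libraries, with a log2 fold change of 0.31 (SE 0.52; edgeR adjusted p = 0.89). For each of these 3 genes, 4 of 6 old libraries lay above the young median. The same library was highest, and the same lowest, for each of them: old replicate 6 and young replicate 6.

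Cd74, the invariant chain and also a surface receptor for the cytokine MIF, had 464, 1187 and 2971 CPM at the lowest, median and highest old library, against 434, 1095 and 2646 CPM in young libraries (log2 fold change 0.18, SE 0.48; edgeR adjusted p = 0.94). Its groups overlapped as those of the chain genes did. The peptide exchange genes varied less. H2-DMa, the alpha chain of H2-DM, had 42.6, 66.0 and 104 CPM in old and 33.8, 64.0 and 104 CPM in young libraries (log2 fold change 0.13, SE 0.27; edgeR adjusted p = 0.92). H2-DMb1, a beta chain of H2-DM, had 43.0, 49.4 and 87.6 CPM in old and 42.2, 50.7 and 75.8 CPM in young libraries (log2 fold change 0.07, SE 0.19; edgeR adjusted p = 0.94). H2-DMb2, the second beta chain gene, was measured by 25 to 50 counts in old and 19 to 38 counts in young libraries, and its highest library, old replicate 6 at 2.59 CPM, lay apart from the other old ones at 1.11 to 1.49 CPM. Its log2 fold change was 0.19 (SE 0.26; edgeR adjusted p = 0.87).

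Ciita had 17.02, 28.8 and 68.0 CPM at the lowest, median and highest old library, against 12.0, 29.4 and 43.2 CPM in young libraries. Old replicates 6 and 4 lay above every young library, and old replicate 2 and young replicate 6 were the lowest of the 12. The log2 fold change was 0.29 (SE 0.36; edgeR adjusted p = 0.86). The H2-O genes were sparse, with 9 to 26 counts of H2-Oa and 10 to 40 counts of H2-Ob in a library. H2-Oa, the alpha chain of H2-O, had 0.421, 0.699 and 1.11 CPM in old and 0.539, 0.715 and 1.15 CPM in young libraries, with a log2 fold change of -0.03 (SE 0.26; edgeR adjusted p = 0.98). H2-Ob, its beta chain, had 0.452, 0.666 and 1.21 CPM in old and 0.719, 1.21 and 1.77 CPM in young libraries. None of the 6 old libraries lay above the young median of H2-Ob, though the groups overlapped. Its log2 fold change of -0.66 (SE 0.31) was the largest of the 10 in size and did not pass (edgeR adjusted p = 0.77).

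**Figure D1:**
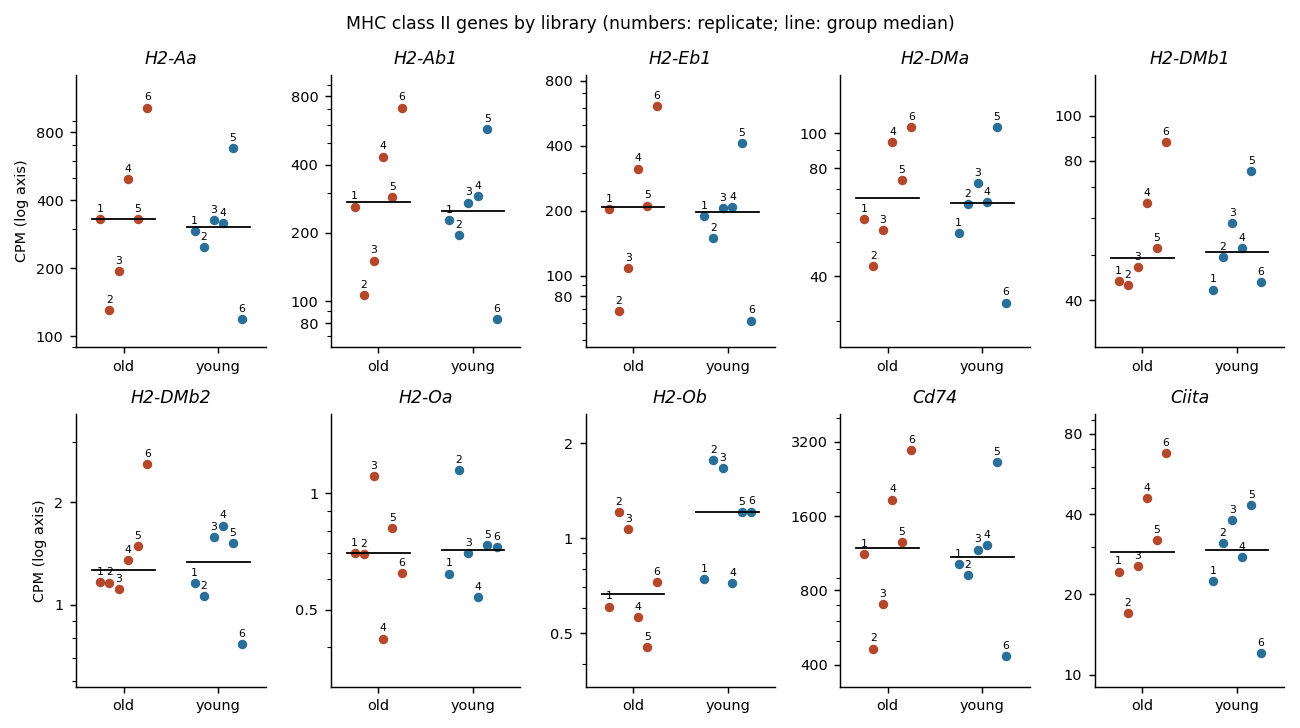
CPM of each class II gene (vertical, log axis) in the 6 old libraries (left, red) and the 6 young libraries (right, blue); numbers are replicate numbers and lines are group medians. Old replicate 6 and young replicate 5 are at or near the top for the chain genes, Cd74, H2-DMa and H2-DMb1, and the groups overlap in every panel.

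The positive fold changes leaned on the library with lymphoid markers. Without old replicate 6, the log2 fold change of old over young was -0.15 for H2-Aa, -0.14 for H2-Ab1, -0.17 for H2-Eb1, -0.19 for Cd74, -0.01 for H2-DMa, -0.10 for H2-DMb1, -0.04 for H2-DMb2 and -0.0035 for Ciita, and none passed edgeR's test. H2-Ob kept its direction, between -0.83 and -0.52, whichever library was left out. The part of the lymphoid cells in the class II levels of old replicate 6 was not tested. With the 3 libraries rich in cell division genes left out (young replicate 6, old replicates 2 and 3), the log2 fold change was 0.56 for H2-Aa, 0.45 for H2-Ab1, 0.53 for H2-Eb1, 0.37 for Cd74, 0.21 for H2-DMa, 0.16 for H2-DMb1, 0.23 for H2-DMb2, 0.39 for Ciita, -0.22 for H2-Oa and -1.06 for H2-Ob. None of the 10 passed there either (edgeR adjusted p between 0.18, for H2-Ob, and 0.74).

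The spread between libraries of one age was large for some members and ordinary for others. About the group means, log2 CPM had an SD of 1.01 for H2-Eb1, 0.95 for H2-Ab1, 0.93 for H2-Aa and 0.90 for Cd74, which placed them at the 98.0, 97.6, 97.4 and 97.1 percentiles of all genes tested. Ciita had an SD of 0.68 (93.0 percentile) and H2-DMa one of 0.52 (85.8 percentile), and H2-DMb1, at 0.36, stood at the 72.7 percentile. From the lowest to the highest of the 12 libraries, H2-Eb1 spanned 9.89-fold, H2-Aa 8.66-fold, H2-Ab1 8.56-fold, Cd74 6.85-fold, Ciita 5.66-fold, H2-DMa 3.08-fold and H2-DMb1 2.08-fold. The chain genes moved in near lockstep over this range: the TPM ratio of H2-Ab1 to H2-Aa stayed between 1.02 and 1.30 in old and between 1.04 and 1.36 in young libraries. That of Cd74 to H2-Aa stayed between 6.52 and 8.61 in old and between 7.90 and 8.82 in young libraries. By contrast, the ratio of H2-DMa to H2-Aa ranged from 0.111 to 0.361 in old and from 0.169 to 0.313 in young libraries.

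Class II genes rose and fell with Ciita from library to library. Over the 12 libraries, 7 of 9 members correlated positively with Ciita at an adjusted p under 0.05 (Pearson r of log2 CPM, two-sided permutation test with 100000 resamples, Benjamini-Hochberg over 12619 genes), where 12.6% of all genes did so in either direction and 5.59% with a positive r. H2-DMa had an r of 0.97 (Spearman rho 0.96; permutation adjusted p = 0.0087), the highest of all genes of at least 5 CPM. H2-Aa and H2-Ab1 had an r of 0.93 each (rho 0.83 and 0.87; permutation adjusted p = 0.010 for both). H2-Eb1 reached 0.92 (rho 0.89; permutation adjusted p = 0.0087), as did Cd74 (rho 0.89; permutation adjusted p = 0.010). H2-DMb1 reached 0.89 (rho 0.94; permutation adjusted p = 0.0087) and H2-DMb2 0.84 (rho 0.70; permutation adjusted p = 0.027). Unadjusted permutation p-values of these 7 lay between 1e-05, the smallest that the resamples can give, and 0.0011. The median r of the 9 members was 0.92, against -0.01 over all genes tested. Counts with Ciita as a covariate in edgeR called the same number, 7 of 9, where 8.88% of all genes had a positive slope called.

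**Figure D2:**
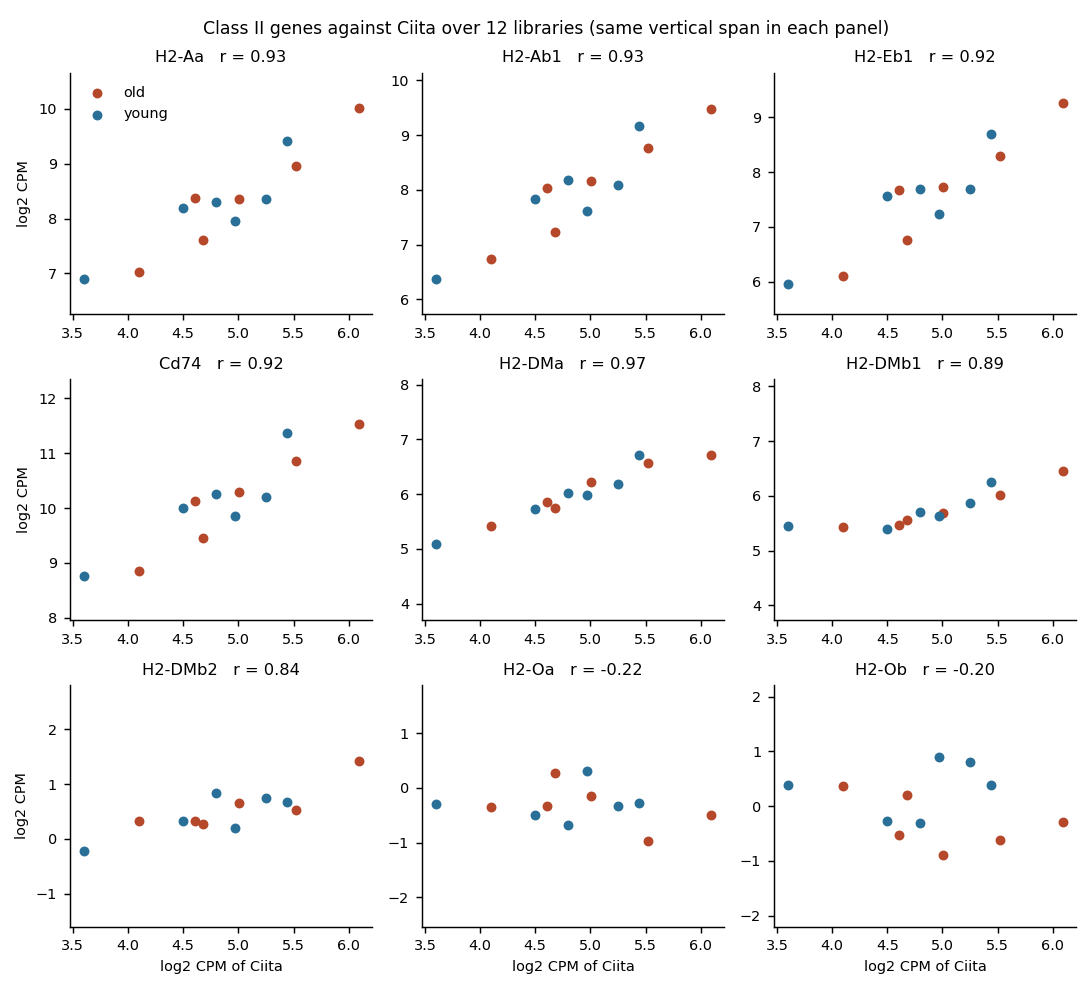
log2 CPM of each class II gene (vertical) against log2 CPM of Ciita (horizontal) in the 6 old (red) and 6 young (blue) libraries, with Pearson r over all 12. The vertical span is the same in each panel, so the chain genes and Cd74 climb steeply, the H2-DM genes less so, and H2-Oa (r = -0.22) and H2-Ob (r = -0.20) scatter.

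The relation was present within each age. In the old libraries, r with Ciita lay between 0.85 (H2-DMb2) and 0.97 (H2-DMa) for these 7 genes, with exact permutation p-values over 720 pairings of 0.0014 to 0.022, of which 0.0014 is the smallest possible with n = 6. In the young libraries, r lay between 0.79 (H2-DMb1) and 0.97 (H2-DMa), with exact permutation p-values of 0.0028 to 0.058, and H2-DMb1 was the gene at 0.058. These p-values are unadjusted, for 9 members in each age. With age means subtracted and Ciita permuted within ages, 6 of 9 members were called, among 321 genes in all. H2-DMb2 was not called there (r = 0.83, permutation adjusted p = 0.054). The slope on Ciita did not differ detectably between old and young for any member (edgeR interaction, 0 of 9 at an unadjusted p under 0.05, and 0 of all genes called, with 2087 of them at an unadjusted p under 0.05).

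The slope on Ciita was estimated for each member. Slopes were tested against each other only for H2-DMb2 and each H2-O gene, through the ratio of their levels. An edgeR slope of 1 means that a gene doubles where Ciita doubles. H2-Eb1 had a slope of 1.33 (95% interval 0.97 to 1.68), H2-Ab1 of 1.27 (0.953 to 1.596), H2-Aa of 1.24 (0.94 to 1.55) and Cd74 of 1.20 (0.88 to 1.51). H2-DMa had a slope of 0.73 (0.60 to 0.87), H2-DMb2 of 0.56 (0.24 to 0.89) and H2-DMb1 of 0.45 (0.30 to 0.60), all below 1. H2-Oa had a slope of -0.11 (-0.59 to 0.37) and H2-Ob of -0.14 (-0.74 to 0.47), and both intervals hold 0. The interval of H2-DMb2 overlaps that of Cd74 slightly, and those of the H2-O genes overlap the intervals of H2-DMb2 and H2-DMb1. The log2 ratio of H2-DMb2 to H2-Oa had an r of 0.67 with Ciita (permutation p = 0.018, adjusted over 2 ratios 0.035). That of H2-DMb2 to H2-Ob had an r of 0.57 (permutation p = 0.052, adjusted 0.052). Both ratios were tested over all 12 libraries only. Without old replicate 6 and young replicate 6, H2-DMb2 itself had an r of 0.52 with Ciita (permutation p = 0.13). These genes had few counts. The intervals leave out the error of Ciita's own level.

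**Figure D3:**
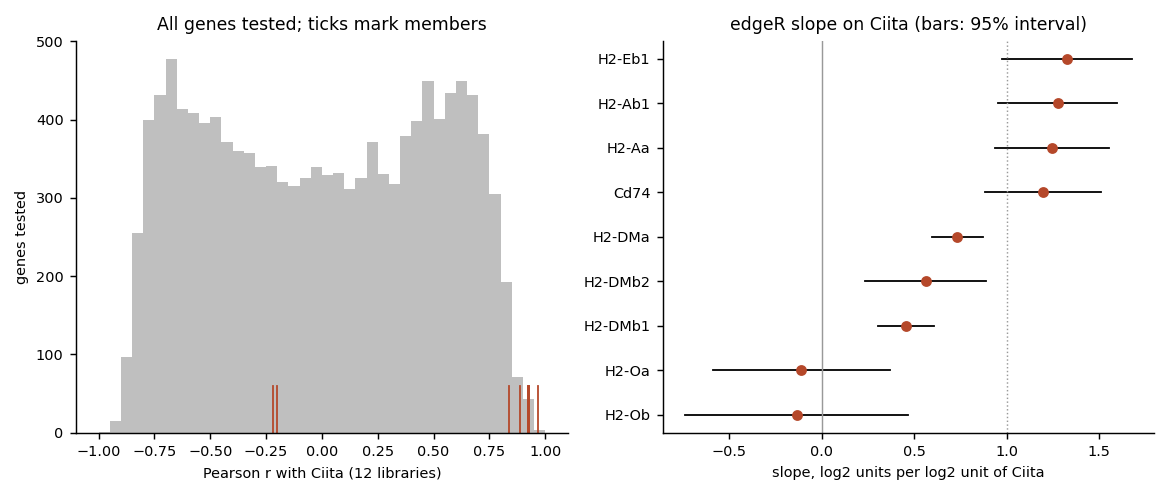
Left, number of genes tested (vertical) by Pearson r with Ciita over 12 libraries (horizontal), with red ticks at the 9 members; right, edgeR slope of each member per log2 unit of Ciita (points) with its 95% interval (bars), a solid line at 0 and a dotted line at 1. The 7 correlated members sit in the right tail and their slopes fall from 1.33 for H2-Eb1 to 0.45 for H2-DMb1.

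H2-Oa and H2-Ob were the 2 members not called with Ciita. Their r was -0.22 (permutation adjusted p = 0.64) and -0.20 (permutation adjusted p = 0.67), on counts of at most 26 and 40 a library. The TPM ratio of H2-DMa to H2-Oa ran from 19.7 to 92.0 in old and from 19.0 to 57.8 in young libraries.

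The calls depended on which libraries were present. Without old replicate 6, the highest for Ciita, 7 of 9 members were called, with r between 0.75 (H2-DMb2) and 0.97 (H2-DMa), and 2055 genes were called in all, against 1587 with it. Without young replicate 6, the lowest for Ciita, r of the 7 remained between 0.76 and 0.95, but among them H2-DMa and H2-DMb1 alone passed, in a setting where 7 genes were called in all. Without both, which are the libraries farthest from the median of Ciita, H2-DMa had an r of 0.96 (permutation adjusted p = 0.042). It was the only member called, among 3 genes called in all. The other correlated members had r between 0.83 and 0.91 there, except H2-DMb2, whose relation rested on those libraries (r = 0.52, permutation p = 0.13). By rank (Spearman), 4 of 9 members passed, among 104 genes called in all: H2-DMa, H2-DMb1, H2-Eb1 and Cd74.

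Cell division genes moved opposite to Ciita. Of 14 cell cycle genes, 12 correlated negatively with Ciita and 0 positively, where 6.99% of all genes were called with a negative r. Rrm2, a subunit of ribonucleotide reductase, had an r of -0.87 (permutation adjusted p = 0.013), Cdk1, the mitotic kinase, -0.86 (0.015 by the same test), Mcm5, a part of the replicative helicase, -0.84 (0.014) and Tyms, thymidylate synthase, -0.82 (0.020). The mean log2 level of the list had an r of -0.82 with Ciita (rho -0.76; permutation p = 5.7e-04 and 0.0056, adjusted over 16 lists 0.0050 and 0.023), of -0.69 without the 2 farthest libraries, and of -0.80 within old and -0.84 within young libraries. With this mean level taken out of every gene, an alternative chosen after seeing the data, r was 0.90 for H2-DMa, 0.88 for H2-DMb1, 0.76 for H2-Ab1, 0.75 for H2-Aa, 0.74 for H2-Eb1, 0.73 for Cd74 and 0.62 for H2-DMb2. All 7 had an r with Ciita larger in size than the -0.82 of the list, so arithmetic alone kept part of it here. In this setting 0 of 9 members and 0 of all genes were called (permutation adjusted p = 0.21 for H2-DMa and H2-DMb1). Without young replicate 6 and old replicates 2 and 3, r of the 7 lay between 0.75 and 0.96 over 9 libraries, and again 0 members and 0 genes were called. Library totals had an r of -0.28 with Ciita (rho -0.12; permutation p = 0.38 and 0.71), and the percent of alignment records assigned to genes one of 0.45 (rho 0.29; permutation p = 0.14 and 0.35).

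Of the other genes that lie among the class II genes on mouse chromosome 17, 5 passed the filter on low counts, and none of these 5 was called. H2-Oa starts the region at 34092340 (GRCm38) and H2-Eb1 ends it at 34316674. Within it, Psmb9 and Psmb8, subunits of the immunoproteasome, had an r of 0.43 and 0.13 with Ciita. Tap1 and Tap2, the peptide pump of the class I pathway, had 0.49 and 0.41, and Brd2, a chromatin reader whose annotation overlaps H2-DMa, had 0.59. The permutation adjusted p of these 5 lay between 0.13 and 0.77. Cd74, which lies on another chromosome, had an r of 0.92. Reads of H2-Eb2 and of the pseudogene H2-Ea-ps were at most 2 counts in any library.

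None of the DNA-binding factors that recruit Ciita passed either test. Of the 7 genes of the RFX complex, the NF-Y complex and Creb1, 0 correlated with Ciita in either direction (median r 0.20), and 0 were called with age. Creb1, the most abundant of them, had 38.0 to 54.1 CPM in old and 37.9 to 50.9 CPM in young libraries (r = 0.62; permutation adjusted p = 0.11). Of 15 genes that induce or restrain Ciita, 4 correlated with it positively and 0 negatively. They were Irf2, an interferon regulatory factor (r = 0.84; permutation adjusted p = 0.022), Prdm1, a repressor of Ciita in plasma cells (0.83; 0.022 by the same test), Ifngr2, a chain of the interferon gamma receptor (0.78; 0.031), and Jak2, a kinase on that receptor (0.74; 0.046).

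Interferon response genes rose with Ciita in part. Of 17 interferon gamma response genes tested, 7 correlated positively and 0 negatively. Gbp4, a guanylate binding protein, had 1.02 to 5.75 CPM in old and 0.970 to 7.84 CPM in young libraries (r = 0.84; permutation adjusted p = 0.021). Cd274, the checkpoint ligand PD-L1, had 27.4 to 88.4 CPM in old and 26.4 to 98.1 CPM in young libraries (r = 0.84; permutation adjusted p = 0.022). Serpina3g and Iigp1 had an r of 0.81 each (permutation adjusted p = 0.028 and 0.030). Of 15 type I interferon response genes, Ifi44 (r = 0.78) and Ifit1 (r = 0.75) were called, and 0 were negative. The order of libraries differed from that of class II at its top: the summed level of the interferon gamma list was 827 CPM in old replicate 6, below 1363 CPM in old replicate 4 and 1700 CPM in young replicate 5. The mean log2 level of that list had an r of 0.78 with Ciita (rho 0.79; permutation p = 0.0032 and 0.0034, adjusted over 16 lists 0.013 and 0.023), and of 0.79 without the 2 farthest libraries. With the cell cycle level taken out, the median r of its genes was 0.03, against 0.74 for the members. This contrast cannot set the members apart from that list, because Ciita itself had an r of -0.82 with the cell cycle level. A gene whose own r with Ciita is larger in size than that keeps part of it by arithmetic alone. A retained r was not particular to class II. The genes outside class II named further on for the highest r kept between 0.75 (Il13ra1) and 0.88 (Spop). Those named for the lowest r kept between -0.86 (Cd81) and -0.72 (Elp3). Both sets were picked for their r with Ciita in these same libraries, so the same arithmetic kept part of it with the cell cycle level out. No member and no other gene was called in that setting, which was chosen after seeing the data.

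**Figure D4:**
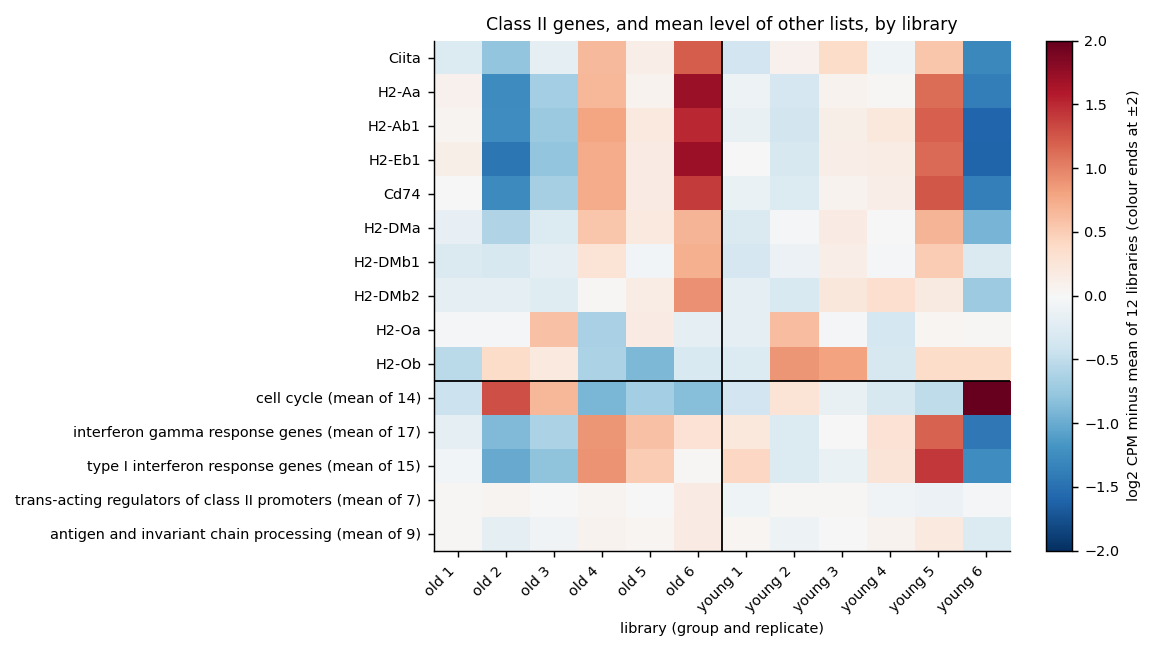
log2 CPM minus its mean over 12 libraries (colour, ends at ±2) for the 10 class II genes (upper rows) and for the mean level of 5 other gene lists (lower rows) in each library (columns, old left of young). Class II genes other than H2-Oa and H2-Ob are mostly highest in old replicate 6 and young replicate 5 and lowest in young replicate 6 and old replicate 2, where the cell cycle row is high, and the interferon rows are less raised in old replicate 6 than in young replicate 5.

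Further along the pathway, 2 of 9 genes of antigen and invariant chain processing correlated positively and 0 negatively. Sppl2a, the protease that removes the last membrane-bound piece of the invariant chain, had 81.3 to 169 CPM in old and 74.2 to 120 CPM in young libraries (r = 0.91; permutation adjusted p = 0.014). Ctss, cathepsin S, which cuts the invariant chain down to CLIP, had 2853 to 6674 CPM in old and 3189 to 4242 CPM in young libraries (r = 0.82; permutation adjusted p = 0.027). Of 7 genes of class II turnover and tetraspanins, 1 was positive and 1 negative. March1, a ubiquitin ligase that removes class II molecules from the surface, had an r of 0.92 (permutation adjusted p = 0.0087), and Cd81, a tetraspanin, had one of -0.96 (permutation adjusted p = 0.0087). None of the 5 costimulation genes tested was called, and Cd86, the most abundant, had an r of 0.61. In the class I pathway 3 of 6 were positive and 0 negative: B2m, the shared light chain (r = 0.88), H2-K1, a heavy chain (0.85), and Tapbp, tapasin (0.81). Adgre1 (r = 0.77) and Mertk (0.76) were the 2 of 9 macrophage genes called. The mean log2 level of several lists correlated with Ciita, with r of 0.85 for antigen processing (rho 0.76; permutation p adjusted over 16 lists 0.0050 for r and 0.023 for rho), 0.80 for turnover (rho 0.55; 0.012 and 0.13), 0.76 for class I (rho 0.84; 0.018 for both), 0.72 for the inducers and restrainers (rho 0.59; 0.022 and 0.12), 0.69 for macrophage identity (rho 0.57; 0.026 and 0.13) and 0.66 for type I interferon response (rho 0.63; 0.032 and 0.10). Without the 2 farthest libraries these r were 0.69, 0.44, 0.70, 0.76, 0.64 and 0.73 in the same order. The factors that recruit Ciita (r = 0.39) and costimulation (r = 0.33) did not pass over the 12 libraries. Without the 2 farthest libraries, the factors had an r of -0.12 (permutation p = 0.73). Costimulation had one of 0.80 there (permutation p = 0.0061, unadjusted). No gene of any of these lists was called between old and young by edgeR (0 in each list).

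Markers of other class II bearing cells were looked at beside these results. Pax5, which defines B cells, was at 0 in all 12 libraries, and Cd79a and Ms4a1 had at most 7 counts. The summed level of all 7 B cell markers was 106 to 279 CPM in old and 43.9 to 345 CPM in young libraries, most of it Ighm (87.7 to 260 CPM in old, 29.9 to 319 CPM in young), and it was 106 CPM in old replicate 6, the lowest of the old libraries. Cd22 (9.26 to 18.4 CPM in old, 11.4 to 23.4 CPM in young) and Cd79b (0.842 to 2.93 CPM in old, 2.16 to 3.76 CPM in young) were measured in every library. The 13 dendritic cell markers summed to 122 to 318 CPM in old and 78.1 to 366 CPM in young libraries, with 174 CPM in old replicate 6. The mean log2 level of the 9 of them tested had an r of 0.73 with Ciita (rho 0.54; permutation p = 0.0070 and 0.074, adjusted over 16 lists 0.019 and 0.13), of 0.75 within old and 0.83 within young libraries, and of 0.56 without the 2 farthest libraries (permutation p = 0.092). All 9 had a positive r, of which Irf4 was called (r = 0.75; permutation adjusted p = 0.041), and the defining markers Flt3, Zbtb46 and Xcr1 had at most 20 counts. In old replicate 6, Ccr7 had 5.08 CPM, against at most 0.519 CPM elsewhere, and Itgax, shared by dendritic cells and macrophages, 79.5 CPM, against at most 48.8 CPM. The monocyte and progenitor markers summed to 57.9 to 111 CPM in old and 74.6 to 88.4 CPM in young libraries. Neutrophil markers summed to 5.28 to 46.1 CPM in old and 8.53 to 27.8 CPM in young libraries, with none of 4 tested called, and stromal and endothelial markers to 0.978 to 2.85 CPM in old and 0.485 to 2.96 CPM in young, with Pecam1 the only one tested and not called. The part of these cells in the class II levels was not tested.

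Outside the class II genes, the highest r with Ciita among genes averaging 5 CPM or more belonged to 10 genes, Spop, Rnf144b, Csf2rb, Tmem67, Gm2a, Naip2, Clec4a4, 4930404N11Rik, Mmp14 and Il13ra1, at r between 0.93 and 0.96 over the 12 libraries. Spop, an adaptor of a ubiquitin ligase, was nearest (r = 0.96) although it varied little, from 112 to 149 CPM in old and from 108 to 139 CPM in young libraries. Csf2rb, the shared receptor chain for GM-CSF, IL-3 and IL-5, had 201 to 383 CPM in old and 201 to 307 CPM in young libraries (r = 0.94). Mmp14, a membrane-bound matrix protease, had 2.42 to 9.84 CPM in old and 2.02 to 9.26 CPM in young libraries (r = 0.93). The 5 lowest were Cd81, Bex3, Arhgef7, Pidd1 and Elp3, with r between -0.96 and -0.91. Cd81 had 110 to 169 CPM in old and 131 to 206 CPM in young libraries, and its lowest value was in old replicate 6 and its highest in young replicate 6. None of these 15 was called between old and young (edgeR adjusted p between 0.79 and 0.91).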

How the data were processed

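Whole, unnormalised read counts per gene were deposited by the authors. They were made with featureCounts 1.6.0 on the Ensembl release 100 annotation of GRCm38, without strand and without multiply aligned reads, per the file headers. The submitters' processing notes name FastQC, STAR and the build mm10. Many low counts are even, and the sources used here do not say whether the 2 mates of a pair were counted apart. Symbols came from a reference table (55141 of 55401 IDs), no value column was left unmapped (0), and library totals were 19345587 to 25169045 counts. No batch is given in the labels.

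Old and young were compared with edgeR 4.0.16 (R 4.3.3; quasi-likelihood F test, TMM, edgeR's low-count filter, group as the only term) over 12620 genes holding 99.9% of counts. CPM carry TMM factors, and log2 CPM a prior count of 2. Correlation with Ciita used SciPy 1.17.1 and NumPy 2.4.6. DESeq2 1.42.0 was an alternative. The procedures were tested on simulated data. The members, the lists and the rule for named genes (all members; the 10 highest and 5 lowest r; up to 4 called genes a list, or its most abundant) were chosen with earlier results of these data known.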

Additional observations from a re-analysis of the deposited data

Results flagged for a closer look

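In 34 sets of 6 libraries (10 members and 7 marker or cell cycle sums, each in old and in young), 7 held a library set apart from the others of its group by more than Dixon's 95% critical value for the gap over the group's range. Chance flags about 1 in 20 such groups. Young replicate 5 had 679 CPM of H2-Aa and 2646 CPM of Cd74, while the other young libraries had 119 to 326 CPM and 434 to 1224 CPM. Old replicate 6 had 2.59 CPM of H2-DMb2, while the other old libraries had 1.11 to 1.49 CPM. Young replicate 2 had 1.15 CPM of H2-Oa, on 26 counts, while the other young libraries had 0.539 to 0.736 CPM. Markers of T, NK and innate lymphoid cells summed to 33.2 CPM in old replicate 6 and to between 0.0930 and 0.271 CPM in the other old libraries. Stromal and endothelial markers summed to 2.85 CPM in old replicate 4, while the other old libraries had 0.978 to 1.35 CPM. Cell cycle genes summed to 2548 CPM in young replicate 6, while the other young libraries had 626 to 844 CPM.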

How the results depend on the processing

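No member was called between old and young under any of the 21 alternatives run, DESeq2 included. All genes called numbered 2 as reported, 4 without the low-count filter, 11 by DESeq2, 5 with a covariate for the cell cycle level, and 1 to 5 with each library left out. Same-numbered libraries deviated together with r between -0.17 and 0.39, so numbers were not taken to pair them. With the replicate block, 4 genes and 0 members were called between old and young; with the replicate block and age, r with Ciita turned to 0.12 for H2-Ob, and 6 of 9 members and 1999 genes in all were called. With the cell cycle covariate the log2 fold change turned to -0.038 for H2-Aa, -0.10 for H2-Ab1, -0.11 for H2-Eb1, -0.17 for Cd74, -0.029 for H2-DMa, -0.016 for H2-DMb1 and 0.015 for H2-Oa. That of H2-Oa also turned, to 0.011, 0.085 and 0.13 when old replicate 6, old replicate 4 or young replicate 2 was left out, and that of H2-DMa to -0.0050 without young replicate 6. With each library left out in turn, log2 fold changes ran from -0.15 to 0.69 for H2-Aa, -0.14 to 0.61 for H2-Ab1, -0.17 to 0.64 for H2-Eb1, -0.19 to 0.55 for Cd74, -0.012 to 0.31 for H2-DMa, -0.10 to 0.20 for H2-DMb1, -0.041 to 0.28 for H2-DMb2, -0.19 to 0.13 for H2-Oa and -0.0035 to 0.43 for Ciita.

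Genes that co-vary with Ciita numbered 1587 as reported, 104 by Spearman, 604 without the low-count filter, 321 with age means subtracted, 2580 by edgeR, 7 (without young replicate 6) to 3305 (without young replicate 5) with each library left out, 57, 125 and 916 when old replicate 2, old replicate 4 or young replicate 3 was left out, 3 without the 2 farthest libraries, and 0 without the 3 libraries rich in cell cycle genes or with that level regressed out. Members called numbered 7 as reported, 4 by Spearman and 6 with age means subtracted. They numbered 2 to 7 with each library left out and 1 without the 2 farthest. Without the 3 libraries rich in cell cycle genes, or with that level regressed out, 0 were called. There r turned to 0.073 for H2-Ob without the 3 libraries, and to 0.21 for H2-Oa and 0.55 for H2-Ob with the cell cycle level out. The cause of these losses was not tested. Sparse counts limit H2-Oa, H2-Ob and H2-DMb2.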
